A study of Mus musculus with 62 samples.

Results

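The comparison described here is between the tibialis anterior muscle of mice 2 weeks after injection of cachectic melanoma cells (CAC) and that of mice 2 weeks after injection of non-cachectic melanoma cells (NCAC). It was formed from the 10 libraries that the labels place in these groups, 5 in each, out of 62 libraries in the series, and all genes were examined. The tibialis anterior is a fast-contracting muscle of the lower hind leg. All animals were female and 2 months old, and the other libraries come from mock-injected mice and from weeks 4, 6 and 8 after injection. The labels name the injected cells only by whether they cause cachexia, and what else distinguishes them was not given in the sources used here, so any other difference between the cell populations cannot be told apart from the capacity to cause cachexia. The 5 mock-injected mice of week 2 are given beside both groups as the level without tumour cells. The sample labels give the strain as C57BL6/J, whereas the series text names NCI Ath/nude mice, an athymic strain that lacks most mature T cells, and the files do not settle which is right. The protocol calls the libraries biological replicates without naming animals, so the p-values measure the spread between these libraries.

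Cachexia is a wasting of muscle and adipose tissue seen in many cancers. Cytokines of the IL-6 family bind receptors that share the subunit gp130 (Il6st), which carries Janus kinases (JAKs). The kinases phosphorylate the transcription factor STAT3, and STAT3 induces genes that include Socs3, a feedback inhibitor of the same receptors. In muscle, wasting is commonly followed through the ubiquitin ligases Trim63 (MuRF1) and Fbxo32 (atrogin-1), while Trim72 (MG53), also a ubiquitin ligase of muscle, takes part in resealing the damaged fibre membrane.

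At 2 weeks, 7 genes were higher in CAC than in NCAC muscle and none was lower, of 11107 genes whose mean over the 62 libraries reached 1 TPM (transcripts per 1000000 transcripts). A gene was called when its adjusted p was under 0.05 by limma on log2(TPM + 1), with Benjamini-Hochberg adjustment over all genes tested. The calls in the higher direction were 0.063% of the genes tested and those in the lower direction 0%. At an unadjusted p under 0.05, 729 genes were higher (6.56%) and 49 were lower (0.441%). The called genes described here are Trim72, the kinase Jak3, the transcription factor Stat3, the ankyrin-repeat and BTB-domain gene Abtb2, the glycosyltransferase gene Wbscr17 (now Galnt17) and Naprt, which makes NAD from nicotinic acid. In each of these 6 genes all CAC libraries lay above all NCAC libraries, a separation that 2.62% of all genes tested showed in this direction. After the libraries were rescaled by median-of-ratios factors, described below, all 6 were still separated, and the share of all genes was 0.765% higher and 0.792% lower.

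The bases before the RefSeq starts of Trim72, Stat3 and Socs3 are shown because STAT proteins bind DNA at motifs of the form TTCNNNGAA and the results turn on these genes. Each run holds the 250 bases before the RefSeq start of transcription on GRCm38.p6, written 5′ to 3′ on the strand of the gene, with any match to the motif in capitals. The windows are chr7:128004128-128004377 (plus) for Trim72, chr11:100939541-100939790 (minus) for Stat3 and chr11:117969367-117969616 (minus) for Socs3. The gene positions given below are from GENCODE, which places some starts further upstream, so that the Trim72 and Socs3 windows lie inside those positions, whereas the Stat3 window ends just before its gene.
Trim72: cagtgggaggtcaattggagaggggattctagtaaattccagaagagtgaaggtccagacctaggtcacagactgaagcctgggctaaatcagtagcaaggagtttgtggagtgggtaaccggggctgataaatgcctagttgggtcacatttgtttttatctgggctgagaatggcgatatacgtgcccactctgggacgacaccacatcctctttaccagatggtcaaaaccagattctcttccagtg
Stat3: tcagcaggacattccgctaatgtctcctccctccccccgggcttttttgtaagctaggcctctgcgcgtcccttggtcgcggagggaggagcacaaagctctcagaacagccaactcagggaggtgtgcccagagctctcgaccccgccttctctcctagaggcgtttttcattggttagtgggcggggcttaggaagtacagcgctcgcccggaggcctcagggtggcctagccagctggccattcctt
Socs3: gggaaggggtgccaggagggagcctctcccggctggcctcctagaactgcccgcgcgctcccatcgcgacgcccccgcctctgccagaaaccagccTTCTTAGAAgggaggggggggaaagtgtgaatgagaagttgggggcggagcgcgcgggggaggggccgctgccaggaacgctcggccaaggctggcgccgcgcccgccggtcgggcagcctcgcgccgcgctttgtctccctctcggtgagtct
The motif reads the same on both strands. Socs3 held 1 match, which began 154 bases before the start, and 7.02% of all 32851 windows of this length held at least 1. RefSeq windows were found for 5 of these 6 genes, none of which held a match, which says only that these letters are not in these windows. No window was matched for Naprt. The deposited data hold no measure of binding at these positions.

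Trim72 had the smallest p of all genes. Its level in CAC replicates 1 to 5 was 146, 215, 199, 223 and 233 TPM. In NCAC replicates 1 to 5 it was 98.8, 98.7, 96.4, 90.6 and 99.5 TPM. The lowest CAC library, replicate 1, still lay well above the highest NCAC library, and the NCAC libraries were close to one another. The mean was 203 ± 34.2 TPM (SD, n = 5) in CAC and 96.8 ± 3.65 TPM (SD, n = 5) in NCAC, a 2.10-fold difference in mean TPM. On the log2(TPM + 1) scale the difference was 1.05 with a standard error of 0.14, and limma gave an adjusted p of 8.72e-06. Mock muscle had 101 ± 14.5 TPM (SD, n = 5). The gene lies on chromosome 7 from 128003949 to 128011033 (plus strand, GRCm38, protein coding).

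Jak3, a Janus kinase best known from blood cells where it acts with receptors of the common gamma chain, was at 6.20, 10.1, 9.08, 6.44 and 7.77 TPM in CAC replicates 1 to 5. In NCAC replicates 1 to 5 it was at 3.96, 2.55, 3.36, 3.65 and 2.84 TPM. The groups did not overlap, and the means were 7.91 ± 1.67 and 3.27 ± 0.58 TPM (SD, n = 5 each), a 2.42-fold difference. The log2 difference was 1.05 with a standard error of 0.17 (limma, adjusted p = 0.000272). Mock muscle, at 3.26 ± 0.73 TPM (SD, n = 5), was near NCAC muscle. Jak3 lies on chromosome 8 from 71676296 to 71690575 (plus strand, GRCm38), and Insl3 overlaps it on the same strand at a mean of 0.353 TPM in CAC and 0 in each NCAC library. Summed levels of the 7 lymphocyte markers were 0.460 to 1.04 TPM in CAC and 0.318 to 1.20 TPM in NCAC libraries, with Cd3e at 0 in all of them. The 6 neutrophil markers summed to 2.30 to 5.13 TPM in CAC, 1.31 to 2.54 TPM in NCAC and 3.47 to 8.12 TPM in mock libraries, and their part in the result was not tested.

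Stat3 was at 14.0, 17.3, 24.6, 23.3 and 23.6 TPM in CAC replicates 1 to 5. It was at 11.8, 8.998, 11.04, 11.1 and 10.2 TPM in NCAC replicates 1 to 5. CAC replicates 1 and 2 lay nearest the NCAC range and the other CAC libraries formed a group well above it. The means were 20.5 ± 4.65 TPM in CAC and 10.6 ± 1.06 TPM in NCAC (SD, n = 5 each), a 1.93-fold difference and a log2 difference of 0.87 with a standard error of 0.17 (limma, adjusted p = 0.0129). Mock muscle had 10.4 ± 1.51 TPM (SD, n = 5). Stat3 lies on chromosome 11 from 100885098 to 100939540 (minus strand, GRCm38), and Stat5a, which overlaps it on the other strand, had 4.76 TPM in CAC and 3.61 TPM in NCAC muscle. The library kit keeps strand, but whether the quantification used it was not given in the sources used here.

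Abtb2, Wbscr17 and Naprt were expressed at lower levels. Abtb2 was at 5.30, 5.78, 4.96, 7.04 and 7.47 TPM in the CAC libraries and at 2.20, 2.82, 3.48, 2.80 and 2.70 TPM in the NCAC libraries (log2 difference 0.90, standard error 0.18, limma adjusted p = 0.0129). Wbscr17, a member of the family that starts mucin-type O-glycosylation, was at 1.503, 0.972, 2.26, 2.06 and 2.31 TPM in CAC and at 0.505, 0.593, 0.833, 0.662 and 0.675 TPM in NCAC libraries (log2 difference 0.75, standard error 0.15, limma adjusted p = 0.0129). For both of these mock muscle lay between the groups: Abtb2 had 6.11, 2.80 and 4.596 TPM and Wbscr17 had 1.82, 0.654 and 1.18 TPM on average in CAC, NCAC and mock muscle. Naprt was at 6.70, 7.47, 8.11, 7.60 and 7.55 TPM in CAC and at 4.84, 4.16, 4.38, 5.90 and 4.61 TPM in NCAC libraries (log2 difference 0.56, standard error 0.12, limma adjusted p = 0.0348). Mock muscle, with a mean of 5.18 TPM for Naprt, was nearer NCAC for this gene. Eef1d overlaps Naprt on the same strand and had 28.0 TPM in CAC and 27.3 TPM in NCAC muscle. On GRCm38 these genes lie at 103566310 to 103718423 of chromosome 2 (Abtb2, plus), 130872082 to 131308497 of chromosome 5 (Wbscr17, minus) and 75890956 to 75894481 of chromosome 15 (Naprt, minus).

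**Figure D1:**
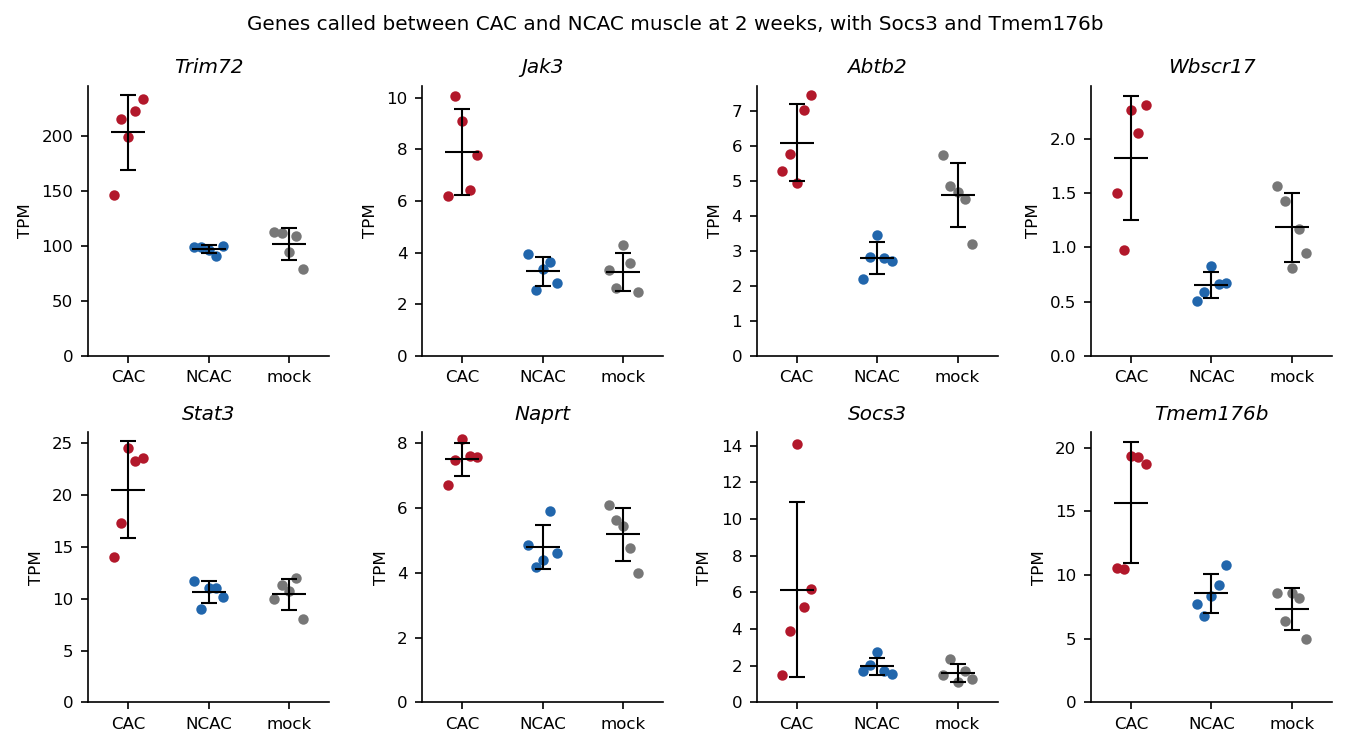
Level of 6 called genes, Socs3 and Tmem176b in the week 2 libraries, in TPM on linear axes from 0. Points are libraries, with the group mean and SD (n = 5 each). All CAC points of the 6 called genes lie above all NCAC points, while CAC replicate 1 of Socs3, at 1.48 TPM, lies below the NCAC libraries.

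The calls differed in how far they rested on single libraries. With each of the 10 libraries left out in turn, Trim72 and Jak3 passed in 10 of 10 fits. Stat3 and Abtb2 passed in 6, Wbscr17 in 5 and Naprt in 2 of 10, with highest adjusted p of 0.110 for Stat3, 0.110 for Abtb2, 0.110 for Wbscr17 and 0.249 for Naprt. In each of these fits the 6 differences stayed above 0, and the Stat3 difference ranged from 0.80 to 0.99 on the log2 scale. The count of called genes was 2 without CAC replicate 4, 2 without CAC replicate 5, 2 without NCAC replicate 2, 3 without CAC replicate 3, 3 without NCAC replicate 1 and 11 without CAC replicate 1. With 1 weight per library estimated from all genes, 70 genes were called, 69 of them higher, and they included the 7.

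A small upward shift ran through the whole comparison. The median log2 difference over all genes was 0.10, and 83.0% of genes were above 0. Mitochondrially encoded genes held 44.4 ± 3.59% of all TPM in CAC and 46.7 ± 2.503% in NCAC libraries (SD, n = 5 each), a difference that an exact two-sided permutation test did not call (p = 0.254, the smallest p that this design allows being 0.00794). Of the 13 mitochondrially encoded protein genes 1 was above 0, and their median was -0.09. When the libraries were rescaled by median-of-ratios factors, the median difference was 0.002 and 50.8% of genes were above 0. Then 5 of the genes were still called (0.0452% of genes tested): Trim72, Jak3, Stat3, Abtb2 and Wbscr17 (log2 differences 0.93, 0.96, 0.76, 0.81 and 0.69), whereas Naprt (adjusted p = 0.0909) was not. Rescaling also called 1 gene lower (0.00905%), Bbs5, a component of the complex that carries proteins to cilia, with 1.66 TPM in CAC, 2.48 TPM in NCAC and 2.05 TPM in mock muscle (log2 difference -0.46, adjusted p = 0.0321). As deposited, the Bbs5 difference was -0.38 with an adjusted p of 0.178.

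**Figure D2:**
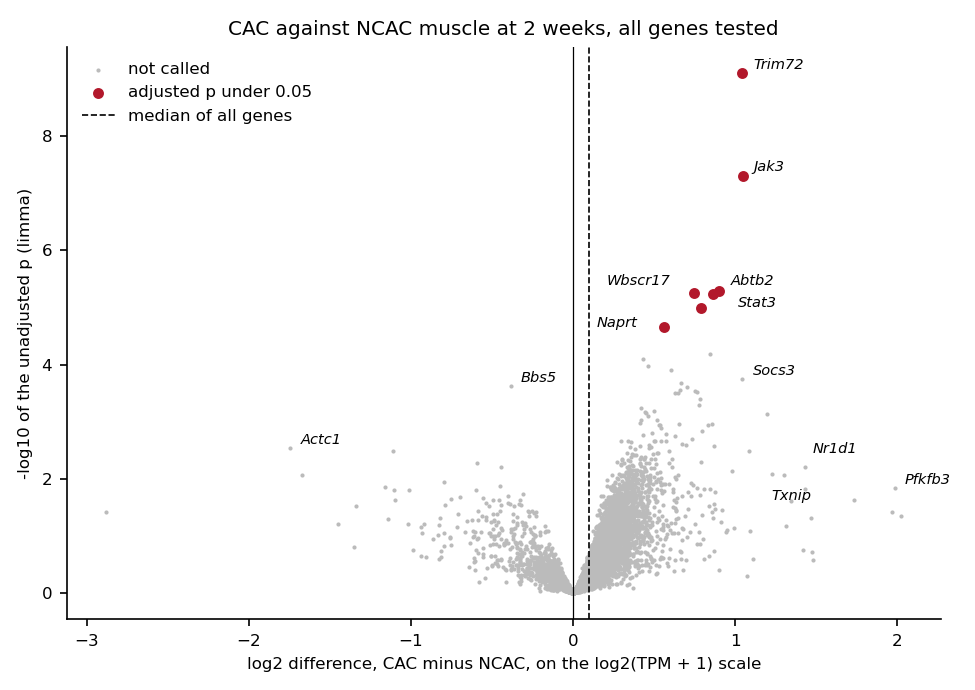
Difference between CAC and NCAC muscle at 2 weeks for each of the 11107 genes tested, in log2 units on the horizontal axis, against -log10 of the unadjusted limma p. Red points are the 7 called genes, all to the right of 0, and the dashed line marks the median of all genes at 0.10.

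The IL-6, JAK and STAT list, of 27 genes tested, held 2 of the 7 called genes, Jak3 and Stat3. Its members had 9 values higher and 1 lower at an unadjusted p under 0.05, where 6.56% and 0.441% of all genes were, and a median log2 difference of 0.17 (0.06 after rescaling). The list was drawn up with earlier calls of Jak3, Stat3 and Socs3 in CAC against mock known, and those calls used the same CAC libraries. It also holds receptors of other cytokines, and Csf2rb and Il1r1 are among the 9. These counts are therefore a description and not independent evidence about the pathway. The receptors differed among themselves. Osmr, the oncostatin M receptor subunit, was at 1.82 to 3.74 TPM in CAC and 1.31 to 1.74 TPM in NCAC muscle, with no overlap as deposited and overlap after rescaling (unadjusted p = 0.00221, adjusted p = 0.499). The shared subunit Il6st had 33.6 and 29.6 TPM, Il6ra had 1.37 and 1.72 TPM and Lifr had 8.59 and 8.61 TPM in CAC and NCAC muscle. Csf2rb, the common beta chain of the IL-3 and GM-CSF receptors, had 2.78 and 1.17 TPM (adjusted p = 0.208) and has a near-identical paralog, Csf2rb2, with which reads can be confused. Among the kinases Jak1 had 35.7 and 33.6 TPM and Tyk2 had 3.68 and 3.94 TPM. Jak2 was at 19.7, 22.6, 20.5, 20.8 and 18.4 TPM in CAC and 34.8, 30.2, 29.8, 27.8 and 20.1 TPM in NCAC libraries, with mock muscle at 21.4 TPM on average (log2 difference -0.45, unadjusted p = 0.0134, adjusted p = 0.640). Values for Osmr, Csf2rb, the other receptors and the uncalled kinases are given to complete the pathway and were chosen after the values were seen.

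Of the genes that STAT3 is known to induce, Socs3 was at 1.48, 3.87, 14.1, 5.19 and 6.17 TPM in CAC replicates 1 to 5. It was at 1.71, 2.05, 2.76, 1.71 and 1.57 TPM in NCAC replicates 1 to 5. CAC replicate 1 lay below each of the NCAC libraries and the other CAC libraries above all of them. The log2 difference was 1.04 with a standard error of 0.26, and the gene was not called (limma, unadjusted p = 0.000177, adjusted p = 0.164). Without CAC replicate 1 the difference was 1.36 with an adjusted p of 0.00234. Against mock muscle, at 1.60 ± 0.49 TPM (SD, n = 5), Socs3 was called higher in CAC (log2 difference 1.24, adjusted p = 0.0306). Bcl3, an IkB-family coactivator, was at 1.02 to 2.11 TPM in CAC and 0.266 to 0.960 TPM in NCAC libraries (log2 difference 0.63, adjusted p = 0.178). Junb, an AP-1 subunit, had 8.44 and 4.41 TPM (log2 difference 0.79, adjusted p = 0.698), and Cebpd and Cebpb, also induced by IL-6, had lower means in CAC than in NCAC (8.73 and 9.92 TPM, and 17.8 and 21.7 TPM).

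CAC and NCAC muscle were each set beside the mock libraries, which both of those comparisons share, while each also shares its tumour group with the comparison above. CAC muscle had 6 genes called higher than mock (0.054%) and none lower, with 892 higher (8.03%) and 62 lower (0.558%) at an unadjusted p under 0.05. That none was lower depended on the scaling: after rescaling 6 were called higher (0.0543%) and 16 lower (0.145%), and without mitochondrially encoded genes 6 higher and 26 lower. As deposited, the genes called higher included Trim72, Jak3, Stat3, Socs3 and Tmem176b. Tmem176b was at 10.5, 10.5, 19.4, 19.3 and 18.7 TPM in CAC and at 7.72, 6.80, 8.35, 9.21 and 10.8 TPM in NCAC libraries, so that the groups overlapped (log2 difference 0.77, adjusted p = 0.178), and Tmem176a overlaps it on the other strand. NCAC muscle had no gene called higher than mock and 18 called lower (0.162%). The count at an unadjusted p under 0.05 was 143 higher for NCAC against mock (1.29%). None of the 18 was called without any 1 of mock replicates 1 and 2 and NCAC replicates 1, 3 and 4, of which mock replicate 1 held 1196 TPM of albumin, and 3 were called without NCAC replicate 2. Of the 6 genes described above, none was called between NCAC and mock, with differences from -0.55 (Abtb2) and -0.39 (Wbscr17) to 0.03 (Stat3).

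No list other than the IL-6, JAK and STAT list and the membrane repair list held a called gene, out of 28 lists. All lists were drawn up with the earlier calls against mock known, Trim72 among them. The membrane repair list held 22 tested genes, of which Trim72 was called. Anxa6, an annexin recruited to membrane lesions, had 137 ± 11.7 TPM in CAC and 107 ± 14.7 TPM in NCAC muscle (SD, n = 5 each; log2 difference 0.35, adjusted p = 0.655). The repair protein dysferlin (Dysf) had 31.7 and 25.8 TPM, and Cav3, the muscle caveolin, was at 66.7 to 80.2 TPM in CAC and 53.6 to 66.1 TPM in NCAC. The median of the list was 0.11, near the 0.10 of all genes.

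Among 22 muscle ubiquitin ligases and atrophy genes, 18 were above 0, where 83.0% of all genes were, with a median of 0.07. After rescaling 7 were above 0, where 50.8% of all genes were, with a median of -0.02. None was called. Trim63 was at 118, 113, 115, 174 and 149 TPM in CAC and at 120, 125, 140, 137 and 116 TPM in NCAC libraries, overlapping ranges. Fbxo32 had 72.8 ± 26.5 TPM in CAC and 63.9 ± 24.5 TPM in NCAC muscle (SD, n = 5 each; log2 difference 0.22 with a standard error of 0.56, adjusted p = 0.921). Stub1, a chaperone-linked ligase, was at 75.3 to 89.1 TPM in CAC and 59.8 to 72.9 TPM in NCAC (unadjusted p = 0.0129, adjusted p = 0.636). None of the 31 proteasome subunits reached an unadjusted p under 0.05, and their median was 0.004 with a range from -0.08 to 0.17. The 27 autophagy and lysosome genes ranged from -0.10 to 0.23 with none called. The standard errors limit what can be seen. They come from a spread estimated over all groups of the series, later weeks included, and not from the compared libraries alone. For Trim63 the standard error was 0.56, with 113 to 174 TPM in CAC and 116 to 140 TPM in NCAC libraries. For Fbxo32 the difference of 0.22 was smaller than its standard error in this fit, so a difference of that size was not detectable.

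Slow-fibre genes had the highest median of the 28 lists. Of 12 slow-fibre contractile genes tested, 11 were above 0, where 83.0% of all genes were, with a median of 0.43 (0.38 after rescaling). Casq2, the slow and cardiac calsequestrin, was at 31.3, 38.3, 28.9, 25.0 and 36.7 TPM in CAC and at 16.5, 25.0, 21.9, 23.1 and 15.7 TPM in NCAC libraries (log2 difference 0.63, adjusted p = 0.720). Myoz2, a Z-disc protein of slow fibres, had 41.8 and 21.5 TPM, the CAC mean including 84.8 TPM in replicate 2. The slow troponins Tnnt1 and Tnnc1 and the slow myosin Myh7 had 4.36, 5.29 and 1.70 TPM in CAC, 2.70, 3.02 and 0.758 TPM in NCAC and 4.32, 5.83 and 2.09 TPM in mock muscle, so that mock lay nearer CAC for these. For Casq2 and Myoz2 mock muscle had 23.9 and 21.0 TPM, nearer NCAC. Myl3 had 71.7, 48.5 and 33.8 TPM in CAC, NCAC and mock muscle, so that mock was nearer NCAC there too. None of the slow genes was called. Fast-fibre genes had a median of -0.06 (4 of 14 above 0, where 83.0% of all genes were). After rescaling 1 of the 14 was above 0, where 50.8% of all genes were, with a median of -0.17. Myh4 had 8694 and 10473 TPM in CAC and NCAC, and Myh2 of the intermediate fibres had 850 and 429 TPM (limma, adjusted p = 0.743).

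**Figure D3:**
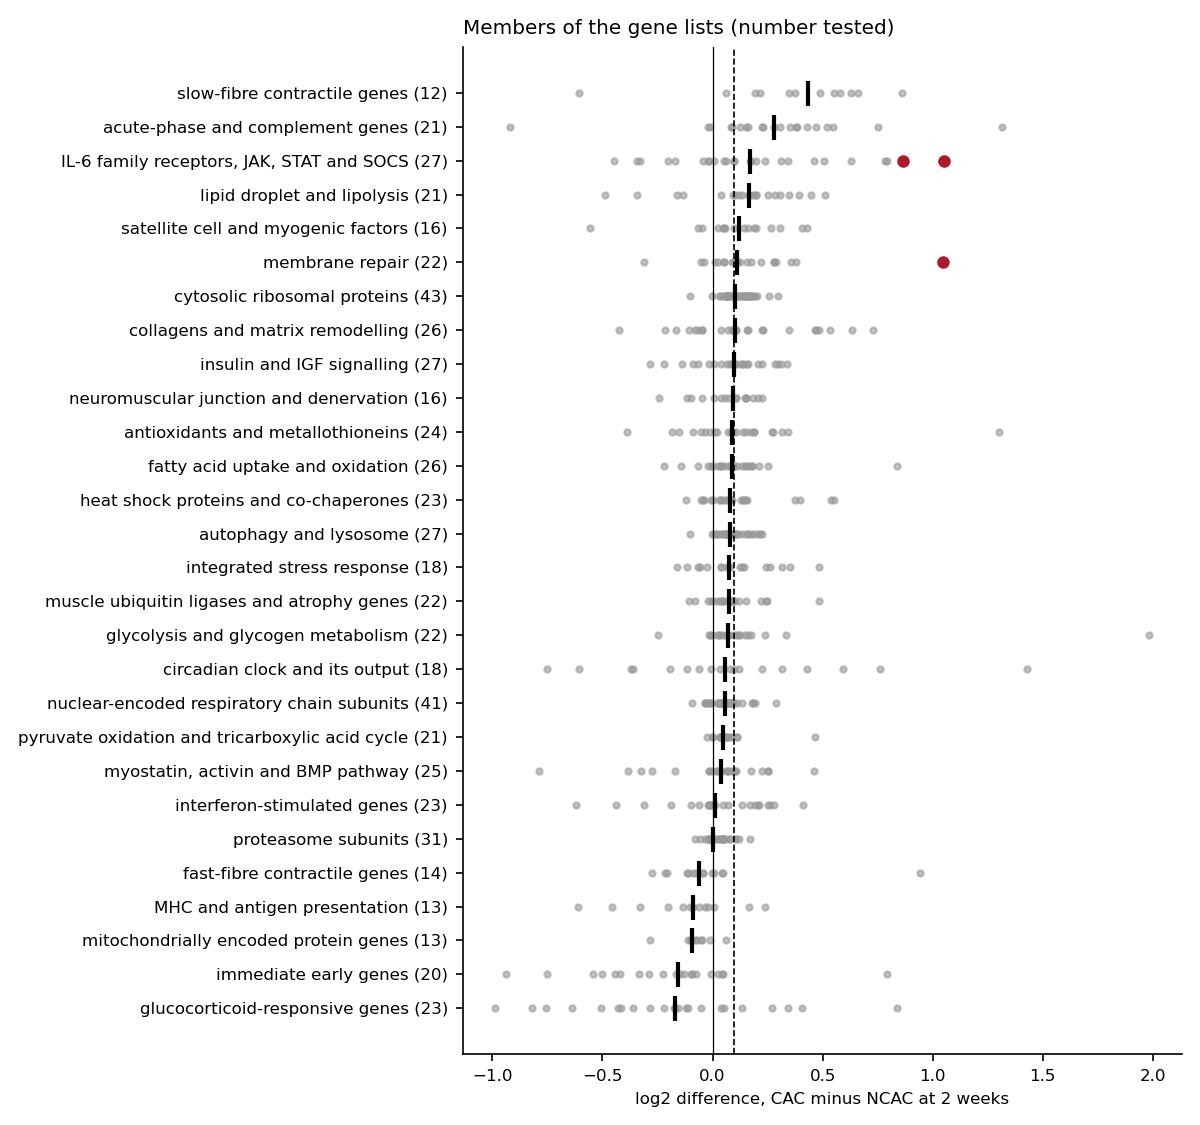
Log2 difference between CAC and NCAC muscle at 2 weeks for each tested member of 28 gene lists, with black bars at the list medians, red points for called genes and a dashed line at the median of all genes. Red points occur in the IL-6, JAK and STAT list and in the membrane repair list, and medians run from -0.17 for glucocorticoid-responsive genes to 0.43 for slow-fibre genes.

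On the lower side no gene was called as deposited. Actc1, the cardiac alpha-actin that skeletal muscle makes during development and repair, had the smallest p among the lower genes of at least 5 TPM. It was at 54.6, 52.4, 68.7, 38.8 and 40.7 TPM in CAC and at 216, 134, 213, 112 and 204 TPM in NCAC libraries, with no overlap, as in 0.135% of genes in this direction (0.792% after rescaling). Mock libraries ranged from 57.1 to 336 TPM. The log2 difference was -1.74 with a standard error of 0.56 (limma, adjusted p = 0.553). In a fit to the 10 libraries alone its adjusted p was 0.0120, while Stat3 (0.0783), Wbscr17 (0.1003) and Naprt (0.0754) were no longer called in that fit. The other 9 genes of smallest p in this direction were the neuropeptide gene Nmb (2.53 and 6.32 TPM), Slc46a3, the corepressor Tle4, Jak2, the growth factor Hbegf (9.99 and 17.1 TPM), the corepressor Hr (28.3 and 41.7 TPM), the clock gene Per2, Skil, a repressor in TGF-beta signalling, and Zfp612, with adjusted p from 0.579 to 0.655. Mock means for Nmb, Hbegf and Hr were 2.00, 10.6 and 23.9 TPM, nearer CAC than NCAC.

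As deposited, mock muscle was mostly nearer CAC among lower genes and mostly nearer NCAC among higher genes. Among the 49 genes lower in CAC at an unadjusted p under 0.05, mock was nearer CAC in 34 (69.4%), against 31.4% of all genes. Among the 729 higher genes it was nearer NCAC in 538 (73.8%), against 68.6% of all genes. After rescaling this contrast was not seen, and mock was nearer CAC in most genes of both directions. It was nearer CAC in 60.1% of 203 lower genes (1.84% of those tested) and in 53.8% of 383 higher genes (3.47%), against 50.2% of all genes. These are descriptions of group means without a test.

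Of 18 clock genes tested none was called, and the list's median was 0.06 (-0.04 after rescaling). For 5 genes of the clock and of glucose use, chosen after their values were seen, the NCAC mean lay apart from the CAC and mock means, and for all of them but Txnip the CAC and NCAC ranges overlapped. Nr1d1 (REV-ERB alpha), a repressor of the clock, was at 75.4, 37.8, 58.6, 116 and 99.1 TPM in CAC and at 19.3, 15.4, 44.4, 35.4 and 25.7 TPM in NCAC libraries. Mock libraries were at 93.5, 106, 59.6, 67.8 and 19.2 TPM, and the CAC and NCAC ranges overlapped (log2 difference 1.43, unadjusted p = 0.00630, adjusted p = 0.636). Clock had 4.73, 2.74 and 4.30 TPM and Per2 had 5.52, 9.13 and 5.59 TPM in CAC, NCAC and mock muscle. Per2 ranged from 2.57 to 9.42 TPM among the CAC libraries, and the hour of tissue collection was not given in the sources used here. Txnip, which restrains glucose uptake, was at 373 to 707 TPM in CAC and 126 to 323 TPM in NCAC with no overlap, and 436 TPM on average in mock muscle. Pfkfb3, a regulator of glycolysis, had 60.7, 14.9 and 47.8 TPM in CAC, NCAC and mock muscle, and varied within CAC from 12.02 to 100.2 TPM.

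Genes that respond to glucocorticoids or to acute stimuli had lower list medians in CAC, where the median of all genes was above 0. The 23 glucocorticoid-responsive genes had a median of -0.17 with 7 above 0, and the 20 immediate early genes a median of -0.16 with 4 above 0. Of all genes 83.0% were above 0. After rescaling 5 and 1 were above 0, where 50.8% of all genes were, with medians of -0.28 and -0.23. The member of smallest p in each list was higher in CAC: Angptl4 (log2 difference 0.84, limma unadjusted p = 0.0295) and Junb (0.79, limma unadjusted p = 0.0434). Neither was called. Dusp1, a phosphatase of MAP kinases, was at 18.1 to 24.5 TPM in CAC and 25.3 to 50.4 TPM in NCAC with no overlap, and 22.4 TPM on average in mock muscle (adjusted p = 0.709). Nr4a1 was at 53.6 to 104 TPM in CAC and 110 to 140 TPM in NCAC, with mock libraries from 58.0 to 170 TPM. Fkbp5 and Mt2, which glucocorticoids induce, had 9.58 and 12.6 TPM and 12.1 and 9.20 TPM in CAC and NCAC. Acvr1b, an activin and myostatin receptor, was at 21.1 to 29.2 TPM in CAC and 33.8 to 57.2 TPM in NCAC, and its mock mean of 25.6 TPM was near that of CAC (adjusted p = 0.661). Myostatin itself (Mstn) had 20.5 and 24.5 TPM.

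**Figure D4:**
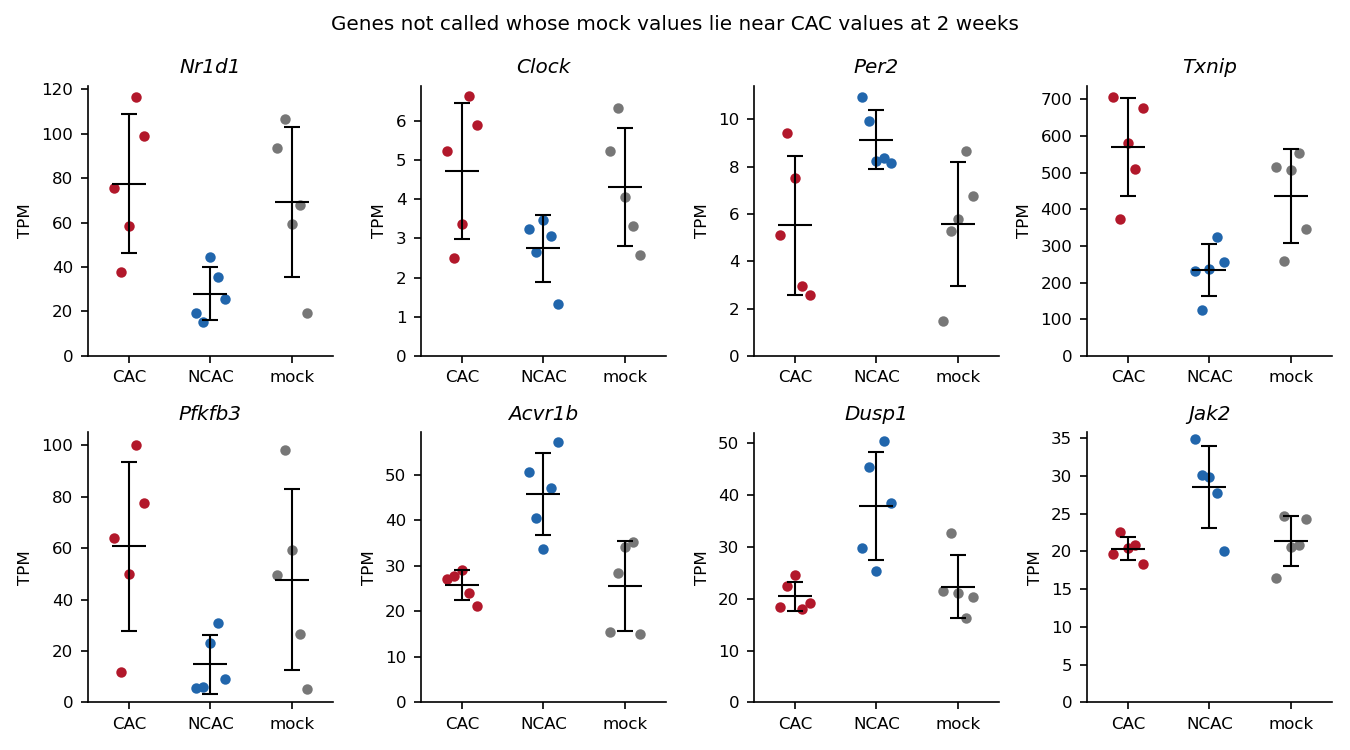
Level of 8 genes that were not called, in TPM on linear axes from 0, in the week 2 libraries, with group mean and SD (n = 5 each), chosen after their values were seen. Mock means lie nearer the CAC than the NCAC means in each panel, and Txnip, Acvr1b and Dusp1 have no overlap between CAC and NCAC.

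Lipid and inflammatory genes showed single members apart. Of 21 lipid droplet and lipolysis genes, 3 had an unadjusted p under 0.05, all higher in CAC, where 6.56% of all genes were, and none was called. After rescaling 0 of the 21 reached that p. Lipe, the hormone-sensitive lipase, had 10.9 and 7.90 TPM, Dgat1 5.79 and 4.70 TPM and Acaca 3.62 and 2.38 TPM in CAC and NCAC muscle. The summed adipocyte markers had 519 and 406 TPM (exact permutation test, p = 0.119, adjusted p = 0.446), and their part in these values was not tested. Of 21 acute-phase and complement genes 18 were above 0, where 83.0% of all genes were, with a median of 0.28 (0.20 after rescaling). Steap4, a metalloreductase, was at 22.8 to 40.4 TPM in CAC and 18.2 to 22.5 TPM in NCAC libraries with no overlap (adjusted p = 0.595). Several members of that list are liver genes that stood highest in mock muscle, such as Hp with 5.64, 0.807 and 13.4 TPM in CAC, NCAC and mock muscle. Hpx and Fga, both counted among the 18, had 0.358 and 0.156 TPM in CAC, 0.196 and 0.0516 TPM in NCAC and 14.3 and 10.9 TPM in mock muscle. Fgg and Serpina3m were likewise near 0 in CAC and NCAC, so the signs of such genes carry little weight.

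Markers of the labelled tissue were abundant. The 7 muscle fibre markers summed to 97901 ± 14740 TPM in CAC and 99256 ± 13657 TPM in NCAC libraries (SD, n = 5 each). None of 15 marker lists differed after adjustment by exact permutation tests, the smallest being neutrophil markers (3.92 and 1.88 TPM, p = 0.0159, adjusted p = 0.238), and S100a8 and S100a9 made up most of that sum. Endothelial markers had 153 and 124 TPM and macrophage markers 60.0 and 64.3 TPM. In bulk muscle, fewer cells of a type and less RNA per cell cannot be told apart. Melanocyte markers other than Sox10 were at or near 0, with Tyr at 0 in all 10 libraries. TPM keeps no record of depth, so the depth of each library is unknown, and rank correlations between week 2 libraries ran from 0.940 to 0.988.

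The same contrast at weeks 4, 6 and 8 used other libraries. Of the 6 genes, 5 were called higher at week 4, where 4.68% of all genes were, 6 at week 6 (64.2%) and 5 at week 8 (67%). After rescaling the count was 5 at each week, against 2.59%, 19.3% and 23.1% of all genes, and Abtb2 was called lower at week 8 (25.7%). Trim72 had 203, 227, 249 and 274 TPM in CAC at weeks 2, 4, 6 and 8 and 96.8, 122, 107 and 115 TPM in NCAC muscle. Its difference at week 8 exceeded that at week 2 by 0.20 with a standard error of 0.19 (adjusted p = 0.403). Stat3 had 20.5, 30.1, 47.0 and 48.8 TPM in CAC, while NCAC means were between 10.4 and 10.8 TPM. Its difference was larger than at week 2 by 1.12 at week 6 (adjusted p = 0.00146) and by 1.19 at week 8 (adjusted p = 0.000175), as 29.5% and 36.7% of all genes were. Both passed after rescaling too (0.74 and 0.80), where 5.8% and 10.3% of genes did. Socs3 in CAC was at 6.15, 20.6, 44.5 and 58.7 TPM, and its difference was larger than at week 2 by 1.81 at week 4 (adjusted p = 0.0420), 1 of 2 genes to pass there (0.018% as deposited and 0.0181% rescaled). No gene passed this week 4 test without a filter on low levels, with a filter of 5 TPM or from weeks 2 and 4 alone.

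The Abtb2 difference varied in sign over the weeks. Abtb2 had 6.11, 3.95, 5.55 and 4.28 TPM in CAC and 2.80, 4.61, 3.34 and 5.24 TPM in NCAC muscle over the 4 times, with mock muscle between 4.27 and 4.596 TPM. Its CAC mean was below the NCAC mean at weeks 4 and 8 and above it at week 6, where it was among the 6 genes called higher as deposited. The difference changed from week 2 to week 8 by -1.14 on the log2 scale (limma, adjusted p = 0.000388), as in 3.39% of all genes, and by -1.46 after rescaling, where 14.3% of genes were lower. Jak3 was larger than at week 2 by 0.60 at week 6 and 0.87 at week 8, Wbscr17 by 0.70 at week 6 and Naprt by 0.47 at week 8, and none of these passed after rescaling (adjusted p = 0.459, 0.0810, 0.127 and 0.591). At week 4 no gene of the 6 differed from week 2 as deposited, and Abtb2 did after rescaling (-1.16, adjusted p = 0.0350, 0.00905% of genes).

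**Figure D5:**
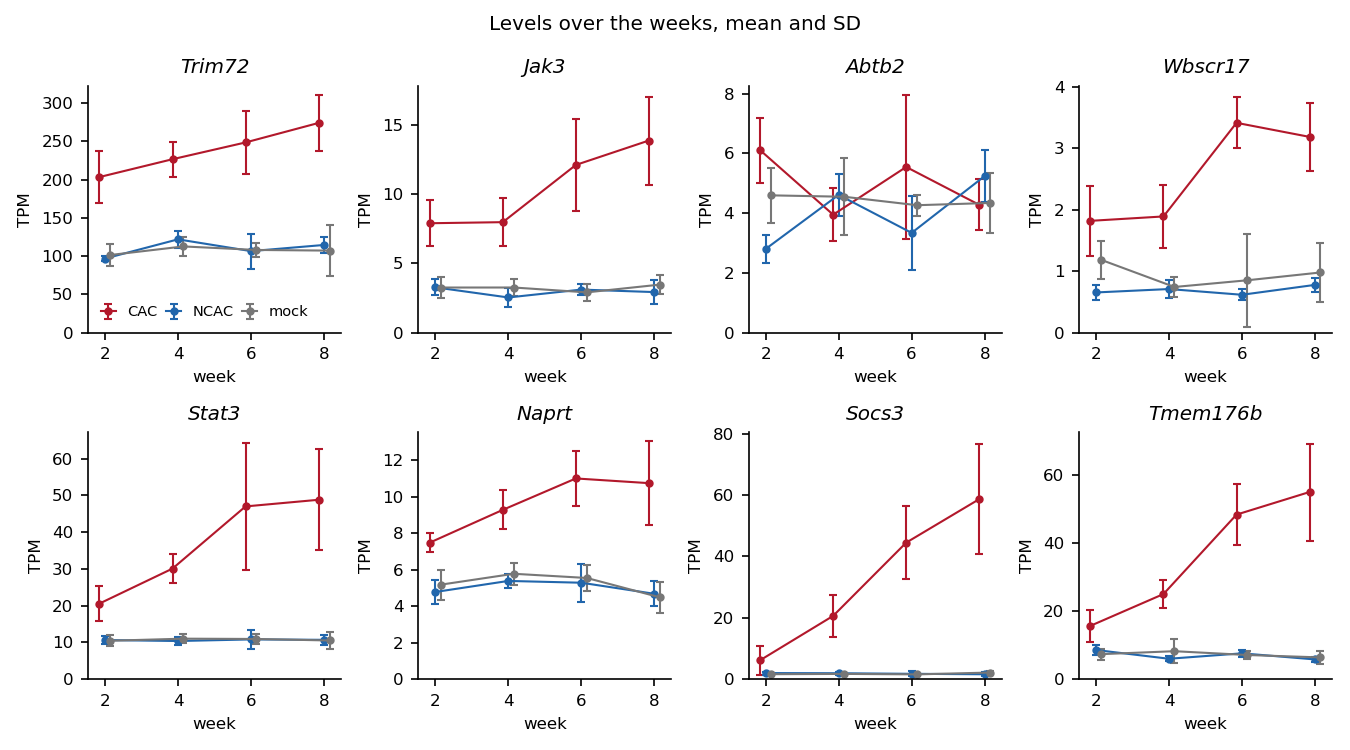
Mean and SD in TPM of 6 called genes, Socs3 and Tmem176b at weeks 2, 4, 6 and 8 in CAC, NCAC and mock muscle, on linear axes from 0 (n = 5 per group, 7 for CAC at week 8). CAC means lie above NCAC means at all 4 times except for Abtb2, whose CAC mean is below at weeks 4 and 8.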

How the data were processed

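RNA was extracted with Trizol, made into libraries with a stranded mRNA kit and sequenced on an Illumina instrument, per the labels' protocols. Per the values, the authors' deposited file gives TPM for 47643 genes in 62 libraries, each column summing to 1000000 TPM, on genome build mm10 per the submitters' processing notes. The aligner and the quantification tool were not given in the sources used here. All 62 columns matched a sample.

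TPM values were tested as log2(TPM + 1) with limma 3.58.1 in R 4.3.3 for the 11107 genes whose mean over all libraries reached 1 TPM. The model had 12 group means, a mean-dependent prior variance and 50 residual degrees of freedom, so that all groups share 1 estimate of the spread. A fold change on this scale understates that of low genes. The rescaled values divide each library by a median-of-ratios factor (0.61 to 1.46). Single sums were compared by exact two-sided permutation tests. The procedure was tested on simulated data. Genes named are all called genes, the genes of smallest p up to 10 per direction with at least 5 TPM, up to 4 of smallest p per list, a panel of 12 and the genes called earlier in CAC against mock, with exceptions stated, and 1 called gene is not reported here. The comparison, gene lists and tests were chosen with earlier results of these data known. Alternatives were pseudocount, filter, scaling, removal of mitochondrial genes, replicate block, fewer groups, library weights and leave-one-out, plus 2 omissions added after seeing the data. Positions are from GENCODE M21 (GRCm38) and promoters from RefSeq (GRCm38.p6). Wbscr17 was matched to Galnt17 as a synonym. Python 3.11.15 was used for annotation and figures.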

Additional observations from a re-analysis of the deposited data

Results flagged for a closer look

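In 147 groups of 5 libraries, from 49 genes in 3 groups, 4 libraries stood apart from the other 4 by Dixon's test at 95%, where chance gives about 1 in 20 groups. They were NCAC replicate 5 for Zfp612 (5.22 TPM), and CAC replicate 2 for Myoz2 (84.8 TPM), CAC replicate 4 for Fbxo32 (119 TPM) and CAC replicate 3 for Mt2 (28.5 TPM).

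The difference between CAC and NCAC muscle changed from week 2 to a later week for several of 22 genes, by the interaction term in limma on values as deposited. Of all genes, 29.5% passed higher and 1.63% lower at week 6, and 36.7% and 3.39% at week 8. After rescaling the shares were 5.8% and 10.5% at week 6, and 10.3% and 14.3% at week 8. At week 4, 0.018% passed higher as deposited. Values are the later log2 difference minus that of week 2. Among the genes called at week 2 these were 0.60 at week 6 and 0.87 at week 8 for Jak3, -1.14 at week 8 for Abtb2, 0.70 at week 6 for Wbscr17, 1.12 at week 6 and 1.19 at week 8 for Stat3, and 0.47 at week 8 for Naprt. The changes of Jak3, Wbscr17 and Naprt did not pass after rescaling. Socs3 changed by 1.81, 3.04 and 3.46 at weeks 4, 6 and 8, and Tmem176b by 1.75 and 2.24 at weeks 6 and 8. Of the wasting panel, none of which was called at week 2, the values at weeks 6 and 8 were 2.34 and 2.03 for Trim63, 1.51 and 1.28 for Mstn, 6.61 and 6.89 for Mt2, and 3.31 and 3.11 for Fkbp5. Cdkn1a changed by 2.06 at week 6 and Myh2 by -1.93 at week 8.

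Nr1d1, Acvr1b and Per2, chosen after their values were seen, had opposite signs at week 2 and at later weeks. Nr1d1 had changes of -1.83 at week 6 and -2.11 at week 8. Its mean was 77.5 and 28.0 TPM in CAC and NCAC at week 2 and 42.2 and 61.1 TPM at week 8. Acvr1b had changes of 1.81 at week 6 and 2.08 at week 8, with 25.9 and 45.8 TPM at week 2 and 80.2 and 27.5 TPM at week 8. Per2 had a change of 1.69 at week 8, with 5.52 and 9.13 TPM at week 2 and 12.5 and 6.12 TPM at week 8. NCAC values at week 2 enter each of these changes.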

How the results depend on the processing

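The 7 calls between CAC and NCAC at 2 weeks became 4 with a filter of 5 TPM and 70 with a weight per library, and 2 to 11 when single libraries were left out. The filter left 7120 genes to test. Abtb2 and Wbscr17 were not among them, and the 4 calls were Trim72, Jak3, Stat3 and Naprt. A replicate block gave 6 calls, all among the 7, without Naprt (adjusted p = 0.0592). Libraries with the same number deviated together with correlations from -0.19 to 0.33, those with different numbers from -0.25 to 0.42, and 3 of 5 CAC libraries correlated best with their own number, so the numbers were not taken to pair libraries. A fit to the 10 libraries alone gave 6 calls, 3 of them shared, and without a filter 7, 6 of them shared. The 6 calls of CAC against mock became 12 without a filter, 22 rescaled, 32 without mitochondrially encoded genes, 3 from week 2 alone, 3 without the libraries over 100 TPM of albumin, and 2 to 39 on leaving out single libraries. The 18 calls of NCAC against mock became 6 with a pseudocount of 0.1, 117 without a filter, 0 with a filter of 5 TPM, 28 rescaled, 50 without mitochondrially encoded genes, 2 with the block, 0 from week 2 alone, 0 without the libraries over 100 TPM of albumin, 0 without CAC libraries of weeks 6 and 8, and 0 to 41 on leaving out single libraries. The 2 genes whose CAC and NCAC difference changed from week 2 to week 4 became 1 with a pseudocount of 0.1, 0 without a filter, 0 with a filter of 5 TPM, 1 with the block, 0 from these weeks alone and 0 to 4 on leaving out libraries. The 3454 for week 6 became 1796 rescaled and 1634 to 3993 on leaving out libraries. The 4457 for week 8 became 2719 rescaled and 3662 to 4935 on leaving out libraries. With a filter of 5 TPM the week 8 count was 2884 of 7120 genes tested, against 4457 of 11107. Of these 2884 genes, 2878 were among the 4457. After rescaling, higher and lower calls were 641 and 1155 at week 6, against 3273 and 181 as deposited, and 1141 and 1578 at week 8, against 4080 and 377. The cause of these changes was not tested.

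Uncalled values near 0 changed sign. Trim63 became -0.065 rescaled and -0.014 without mitochondrially encoded genes. On leaving out single libraries the log2 difference ranged from -0.052 to 0.10 for Trim63, -0.0051 to 0.59 for Mt2, -0.43 to 0.13 for Fkbp5, -0.18 to 0.39 for Pdk4 and -0.20 to 0.10 for Ppargc1a. Rescaled differences of marker sums became -16.7 TPM for fibroblast and -0.013 TPM for keratinocyte markers. On leaving out single libraries they ranged from -27.7 to 49.8 TPM for fibroblast, -0.019 to 0.33 for keratinocyte, -6972 to 2983 for muscle fibre, -10.9 to 5.27 for macrophage, -24.5 to 135 for erythroid and -11.3 to 29.5 for tendon markers. The difference in mitochondrial share ranged from -3.49 to -1.22 percentage points. The depth of the libraries is unknown, so no limit from counting can be given.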
